A study of Mus musculus with 9 samples.

Results

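The genes described here make or recycle the nucleotides that cells use for RNA, DNA and energy transfer. They were listed by their known function, though with earlier results of these data in view: 32 enzyme genes of purine and pyrimidine synthesis, of nucleoside salvage and of deoxynucleotide supply, with every probe set annotated to 1 of them alone. Of the 32, 27 had such a probe set, 50 probe sets in all among the 22690 on each array. Probe sets for Pfas, Atic, Impdh2, Gmps and Dctd were not analysed here.

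The data are 9 Affymetrix mouse expression arrays, 3 for each of 3 kinds of cell. GMP are normal granulocyte-macrophage progenitors of the bone marrow, which give rise to granulocytes and macrophages. L-GMP are marrow cells that resemble GMP, taken from mice whose leukemia is driven by MLL-AF9, the fusion protein that joins parts of Kmt2a and Mllt3. The remaining 3 arrays have coded titles and L-GMP as their source. They are called L-GMP-derived here, cells grown in culture from L-GMP, by elimination against the kinds of cell in the design text, and that reading limits every statement about them. Each sample came from about 50000 sorted cells. The strain, age and sex of the mice, the vector that carried the fusion, the culture medium and any pooling of animals were not given in the labels. No label says whether arrays within a group are separate mice or cultures, so the p-values reflect only array-to-array spread, possibly technical.

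Purine synthesis starts from phosphoribosyl pyrophosphate (PRPP), which the Prps enzymes make, and builds the purine ring on it until inosine monophosphate (IMP) is formed, the precursor of AMP and GMP nucleotides. Pyrimidine synthesis makes the ring first, through the multifunctional Cad protein and Dhodh, and Umps then gives uridine monophosphate (UMP), the source of cytidine nucleotides through Ctps. Salvage enzymes such as Hprt, Aprt and Uck2 return free bases and nucleosides to these pools, and ribonucleotide reductase turns ribonucleotides into the building blocks of DNA. Several of these genes are known targets of the transcription factor Myc, and some of the deoxynucleotide genes are known to be expressed most in S phase.

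The signals are on a linear scale. For the tests, values below 62.4 were set to that floor, log2 was taken, and the 14578 probe sets above 111 on at least 3 arrays were compared with limma, with p-values adjusted over all of them by Benjamini and Hochberg and a threshold of 0.05. A gene stands for its brightest probe set unless another is named. By that rule 26 of the 27 genes were tested. Tyms, which encodes thymidylate synthase, was too dim on its brightest unshared probe set, at 73.2, 69.4 and 84.3 in L-GMP, 174, 97.7 and 77.0 in L-GMP-derived cells and 88.2, 65.9 and 85.1 in GMP, and is given no fold.

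Arrays of 1 group correlated at 0.958 to 0.991 over the tested probe sets and arrays of different groups at 0.898 to 0.928. Within the L-GMP-derived group, replicate 1 correlated at 0.958 and 0.964 with replicates 2 and 3, and those at 0.989 with each other, so counts are also given without it. Signals of 9 GMP markers summed to 29896 to 36230 in L-GMP, 40345 to 41671 in GMP and 24245 to 28800 in L-GMP-derived cells. Of these 9, 3 were lower and 1 higher in L-GMP than in GMP (log2 differences -1.79 to 0.62). The shares over all tested genes were 12.8% lower and 13.1% higher. All 9 GMP markers were above 111 on every GMP and L-GMP array, and 7 of 9 on the L-GMP-derived arrays. There the stem cell factor receptor gene Kit read 110.2, 105 and 67.0 against 861, 778 and 809 in GMP, and the progenitor antigen gene Cd34 55.6, 35.0 and 18.7 against 631, 495 and 578, so 2 genes of antigens that define GMP were below 111 there. The granule enzyme gene Mpo read 6630.5, 4647 and 6806 in L-GMP, 3581, 425 and 319 in L-GMP-derived cells and 9224, 9398 and 9476 in GMP. Signals of 7 macrophage markers summed to 6672 to 8232 in L-GMP, 1493 to 1598 in GMP and 1143 to 2296 in L-GMP-derived cells, with 4, 3 and 4 of them above 111. Of these 7, 4 were tested, and all 4 were higher in L-GMP than in GMP without overlap (log2 differences 1.43 to 3.03). Over all tested genes 13.1% were higher. In L-GMP-derived cells 3 of the 4 were lower than in L-GMP and 0 higher. Marco and Mrc1, which mark tissue macrophages, were at most 63.6 on every array. Signals of 8 neutrophil markers summed to 17929 to 36712 in L-GMP, 8983 to 22602 in GMP and 962 to 8499 in L-GMP-derived cells, with 6, 5 to 6 and 4 to 5 above 111. Markers of B cells (2 to 3 of 6 above 111), T and NK cells (4 to 5 of 6), red cells and megakaryocytes (1 to 3 of 5) and stem cells (0 to 2 of 3) were also counted, and of these Ms4a1, Cd3g and Klf1 were below 111 on all 9 arrays. The 6 T and NK cell markers summed to 3060 to 3324 in GMP, 2313 to 2737 in L-GMP and 896 to 904 in L-GMP-derived cells, and the 3 stem cell markers to 344 to 409, 169 to 185 and 93.3 to 135, so both sums moved with the groups. Sums follow the brightest genes. Mean log2 levels of the T and NK cell markers overlapped between GMP (7.70 to 7.86) and L-GMP (7.74 to 7.86), with 7.06 to 7.12 in L-GMP-derived cells. The B cell sums were 1904 to 2090.1, 2055 to 2308 and 1726 to 2159, and those of red cells and megakaryocytes 734 to 941, 796 to 1046 and 503 to 655. The part of these other cells in the results below was not tested. In bulk samples, fewer cells of a type and less RNA per cell cannot be told apart.

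The letters near the starts of some of these genes are shown first, because Myc and E2F factors are known to bind such motifs and several of the genes moved together. The RefSeq promoter windows of GRCm38.p6 (250 bases before to 50 after each start) were searched on either strand for CACGTG, the E-box of Myc and Max, for the E2F forms TTCCCGC and TTGGCGC, and for CCAAT, with no overlaps between motifs resolved. Windows were listed for 26 of the 27 genes. The E-box was in windows of 3 of the 26 genes (11.5%), against 8.09% of 27025 genes. The first E2F form was in 4 (15.4%, against 5.29%), the second in 1 (3.85%, against 2.85%) and CCAAT in 9 (34.6%, against 41.1%). Over all listed genes, with or without a probe set used here, 30 had a window. The E-box was in 5 of these (16.7%), Atic and Impdh2 among them. The first E2F form was in 4 (13.3%), the second in 2 (6.67%) and CCAAT in 12 (40%). These shares are descriptions of letters, not of binding. Stretches of 30 bases on the gene's strand follow, 5′ to 3′, with the match in capitals; for Ppat the first 2 matches read the E2F letters on the other strand.
Nme1, E-box, chr11:93968273-93968302, minus strand: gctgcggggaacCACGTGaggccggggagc
Paics, E-box, chr5:76951087-76951116, plus strand: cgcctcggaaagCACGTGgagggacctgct
Tyms, E-box, chr5:30073669-30073698, minus strand: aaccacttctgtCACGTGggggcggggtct
Ppat, E2F, chr5:76951772-76951801, minus strand: ggagcagaccgcGCGGGAAaaaagggcagt
Ppat, E2F, chr5:76951719-76951748, minus strand: caggatcagaggGCGGGAAagggaggtgca
Ppat, E2F, chr5:76951611-76951640, minus strand: gtgtccccaggcTTCCCGCcgcgcaggcgc
Rrm1, E2F, chr7:102441616-102441645, plus strand: caggagaactcgTTCCCGCcaggtccgctt

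Ppat (chr5:76913249-76951578) and Paics (chr5:76951302-76967509) lie head to head, and their annotated 5′ ends overlap by 277 bases. Nme1 (chr11:93958925-93968272) and Nme2 (chr11:93949814-93956256) are neighbours on the same strand. Cad, whose E-box is known from other work, had no E-box letters in this window, which says nothing about Myc at that gene. Of the genes that were lower in L-GMP than in GMP, 9 had a window, and 2 of those (22.2%) held the E-box. The share was 11.5% over the 26 genes and 8.09% over all 27025. Those 9 were chosen by their calls in these data, and a part of Myc was not tested.

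L-GMP were set against GMP to ask how the leukemic progenitors depart from normal ones. Of the 26 tested genes, 10 fell in L-GMP, 1 rose and 15 did not pass the test. Over all 8959 tested genes, 12.8% were lower and 13.1% higher (25.9% of probe sets in either direction). The fallen genes were Ppat, Paics, Adsl and Impdh1 of the purine branch, Cad, Dhodh, Umps and Uck2 of the pyrimidine branch, and both diphosphate kinase genes, Nme1 and Nme2. The median log2 difference was -0.26 over the 26 genes and -0.01 over all tested genes. Groups did not overlap for 17 of the 26, against 46.3% of all tested probe sets. Without L-GMP-derived replicate 1, which enters only through the shared spread, 11 were lower and 3 higher. Leaving out GMP replicate 3 gave 7 lower.

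**Figure D1:**
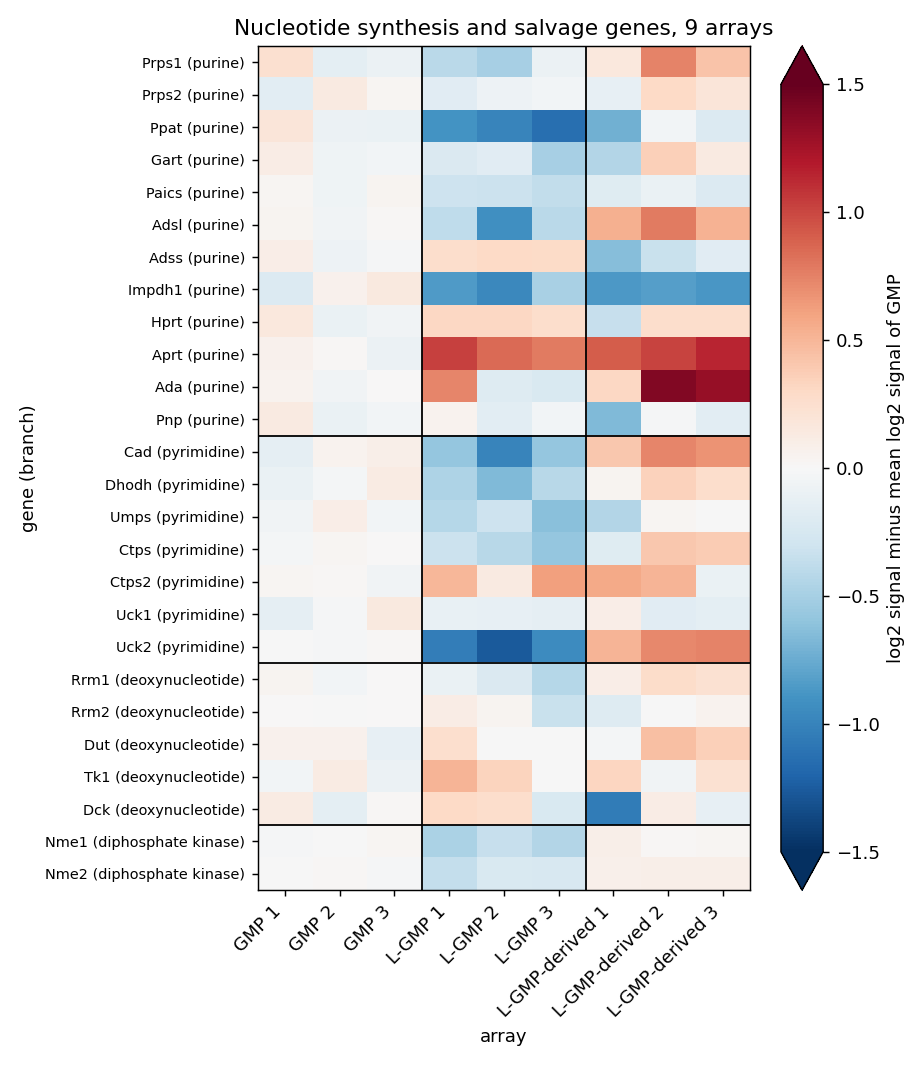
Log2 signal of each of the 26 tested nucleotide genes (rows, by branch) on each of the 9 arrays (columns), minus the gene's mean over the GMP arrays. Blue cells are below GMP and red cells above; the L-GMP columns are blue for Ppat, Cad and Uck2, and the L-GMP-derived columns are red for Uck2 and Adsl.

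L-GMP-derived cells were set against L-GMP to ask how leukemic cells taken as grown in culture differ from those of the marrow. Culture and a change of cell state cannot be told apart in this design. Here 12 of the 26 genes rose, 1 fell and 13 did not pass the test, where 16.6% of all tested genes were higher and 14.1% lower (29.9% of probe sets in either direction). The median log2 difference was 0.26, against -0.00 over all tested genes, and groups did not overlap for 13 of 26, against 40.4% of probe sets. The 12 were Prps1, Ppat, Paics, Adsl, Ada, Cad, Dhodh, Ctps, Uck2, Rrm1, Nme1 and Nme2, and Adss fell. Without L-GMP-derived replicate 1, 15 rose and 1 fell. Set against GMP, L-GMP-derived cells had 5 genes higher (Adsl, Aprt, Ada, Cad and Uck2) and 2 lower (Adss and Impdh1), with 19 not past the test, where 13.4% and 10.6% of all tested genes were higher and lower (24.4% of probe sets in either direction). Its median was 0.10, against 0.00 over all tested genes, and 10 of 26 did not overlap, against 40.9% of probe sets. The higher count was 9 without L-GMP-derived replicate 1, 2 without replicate 2 of that group and 3 without any 1 of the GMP arrays, and the lower count was 1 without any 1 of the GMP arrays. The 3 comparisons share arrays in pairs, so they are given side by side and not as separate support for each other.

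**Figure D2:**
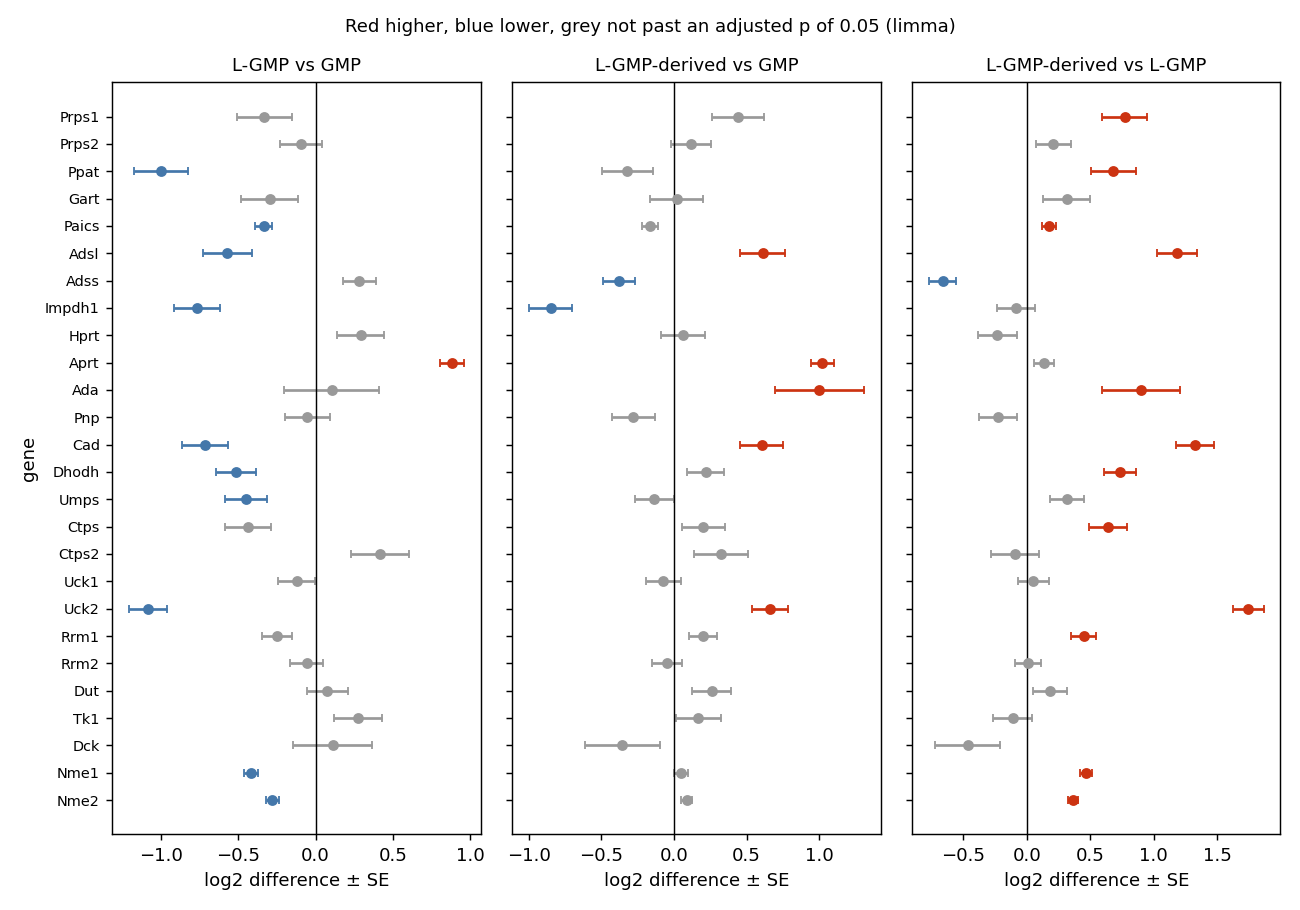
Log2 difference (x axis) with its standard error (bars) for each of the 26 tested genes (y axis) in the 3 comparisons. Red and blue mark genes past an adjusted p of 0.05; blue prevails on the left, with 10 lower and 1 higher, and red on the right, with 12 higher and 1 lower.

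Ppat encodes the amidotransferase that commits PRPP to purine synthesis. Its signals were 337, 316 and 285 in L-GMP, 380.4, 606 and 544 in L-GMP-derived cells and 709.8, 589 and 584 in GMP. Every L-GMP array lay below every array of the other groups. Ppat was 2.0-fold lower in L-GMP than in GMP (log2 difference -1.0 ± 0.17 SE, adjusted p = 0.00192) and 1.60-fold higher in L-GMP-derived cells than in L-GMP (adjusted p = 0.0137). The latter did not pass once L-GMP replicate 3 (adjusted p = 0.0504), L-GMP-derived replicate 2 (0.0515) or L-GMP-derived replicate 3 (0.0531; 6.29e-04 to 0.0638 over all alternatives) was dropped. The other Ppat probe set read 211, 182 and 189 in L-GMP and 541, 372 and 342 in GMP and was 2.12-fold lower (adjusted p = 0.00606), but did not pass for L-GMP-derived cells against L-GMP (adjusted p = 0.0628).

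Paics, which shares its 5′ region with Ppat, encodes the enzyme of 2 middle steps of IMP synthesis. Its brightest probe set read 3376, 3356 and 3234 in L-GMP, 3687, 3902 and 3640.4 in L-GMP-derived cells and 4287, 3991 and 4295 in GMP. It was 1.26-fold lower in L-GMP than in GMP (adjusted p = 0.00136), with no overlap between groups. This probe set can bind related transcripts, and 2 dimmer Paics probe sets gave log2 differences of -0.17 and -0.19 that did not pass (adjusted p = 0.416 and 0.3). In L-GMP-derived cells Paics was 1.13-fold above L-GMP (adjusted p = 0.0374), which was lost on dropping any of the 3 L-GMP arrays (up to 0.106), L-GMP-derived replicate 2 (0.123) or replicate 3 (0.0556), or GMP replicate 1 (0.052) or 3 (0.0584; 0.0302 to 0.158 over all alternatives).

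Adsl encodes adenylosuccinate lyase, which acts in IMP synthesis and again on the way to AMP. Its signals were 315, 216 and 308 in L-GMP, 590.1, 703 and 589 in L-GMP-derived cells and 419, 393 and 415 in GMP, so the 3 groups did not overlap. It was 1.48-fold lower in L-GMP than in GMP (adjusted p = 0.0217), 1.53-fold higher in L-GMP-derived cells than in GMP (adjusted p = 0.0163) and 2.27-fold higher than in L-GMP (log2 difference 1.18 ± 0.16 SE, adjusted p = 3.26e-04). The first was lost on dropping L-GMP replicate 2 (adjusted p = 0.064) or any 1 of the GMP arrays (up to 0.075; 0.00905 to 0.137 over all alternatives). The second was lost on dropping L-GMP-derived replicate 2 (0.0589), GMP replicate 2 (0.0627) or GMP replicate 3 (0.0541; 0.00597 to 0.124 over all alternatives).

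Gart encodes a protein of 3 IMP synthesis activities, and is known to give a long and a short transcript. Its brightest probe set read 1079, 1111 and 883 in L-GMP, 925, 1597 and 1375 in L-GMP-derived cells and 1351, 1195 and 1212 in GMP, and none of its 3 comparisons passed (adjusted p = 0.276, 0.957 and 0.232 for L-GMP against GMP, L-GMP-derived against GMP and L-GMP-derived against L-GMP). The last passed without L-GMP-derived replicate 1 (0.007). A dimmer probe set at 349, 337 and 378 in L-GMP, 608, 616 and 537 in L-GMP-derived cells and 436, 464 and 470.0 in GMP passed all 3, with log2 differences of -0.36, 0.36 and 0.72 (adjusted p = 0.0344, 0.038 and 7.79e-04). The third probe set passed none, with log2 differences of 0.29, 0.01 and -0.27. The files do not say which Gart transcripts each probe set reads.

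Prps1 and Prps2 encode the synthetases that supply PRPP. Prps1 read 271, 255 and 337 in L-GMP, 399, 601 and 482 in L-GMP-derived cells and 424, 325 and 337 in GMP and was 1.71-fold higher in L-GMP-derived cells than in L-GMP (adjusted p = 0.00809), with no overlap, while L-GMP against GMP did not pass (adjusted p = 0.208). Against GMP, L-GMP-derived cells had an adjusted p of 0.1 for Prps1, and 0.0269 without L-GMP-derived replicate 1. Prps2, the gene of the second PRPP synthetase, read 243, 259 and 266 in L-GMP, 250.1, 335 and 309 in L-GMP-derived cells and 244, 299.5 and 278 in GMP and passed no comparison (adjusted p = 0.674, 0.58 and 0.289 in the order above).

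Beyond IMP, the path to GMP nucleotides runs through IMP dehydrogenase and the path to AMP through adenylosuccinate synthetase. Impdh1 read 201, 186 and 260.1 in L-GMP, 201, 206 and 198 in L-GMP-derived cells and 315, 379 and 400.4 in GMP. All 6 leukemic arrays lay below all GMP arrays, with L-GMP 1.70-fold and L-GMP-derived cells 1.80-fold lower (adjusted p = 0.00346 and 0.00215), and the leukemic groups overlapped (adjusted p = 0.718). Adss, which encodes the synthetase, read 2969, 3056 and 3016 in L-GMP, 1597, 1970.2 and 2198 in L-GMP-derived cells and 2656, 2347 and 2438 in GMP. L-GMP-derived cells were lowest, 1.58-fold below L-GMP (log2 difference -0.66 ± 0.11 SE, adjusted p = 0.00116) and 1.30-fold below GMP (adjusted p = 0.0275). The call against GMP ended without any 1 of the GMP arrays (adjusted p = 0.0517 to 0.0956; 0.00837 to 0.219 over all alternatives). L-GMP against GMP had an adjusted p of 0.0814 for Adss, and 0.00938 without L-GMP-derived replicate 1, in the direction of L-GMP higher.

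Of the 4 purine salvage genes, 1 rose and 0 fell in L-GMP, where 13.1% of all tested genes rose and 12.8% fell. Aprt, which encodes the enzyme that recycles adenine, read 5739.8, 5098 and 4837 in L-GMP, 5319, 5694 and 6236 in L-GMP-derived cells and 2968, 2863 and 2662 in GMP, and all leukemic arrays lay above all GMP arrays. It was 1.84-fold higher in L-GMP (log2 difference 0.88 ± 0.08 SE, adjusted p = 2.73e-05) and 2.03-fold higher in L-GMP-derived cells (log2 difference 1.02 ± 0.08 SE, adjusted p = 9.57e-06), while the leukemic groups did not differ past the threshold (adjusted p = 0.219). A second Aprt probe set gave 1.73-fold and 1.90-fold, and no alternative tried ended either call of the brightest. Hprt, which encodes the enzyme that recycles hypoxanthine and guanine, read 2093, 2092 and 2035 in L-GMP, 1330.4, 2034 and 2033 in L-GMP-derived cells and 1882, 1581 and 1629 in GMP and passed no comparison (adjusted p = 0.192, 0.81 and 0.289). Without L-GMP-derived replicate 1, at 1330.4 the lowest of its values, Hprt passed as higher in L-GMP (0.0156) and in L-GMP-derived cells (0.0426) than in GMP.

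Ada encodes adenosine deaminase, which clears adenosine and deoxyadenosine. Its signals were 442, 233 and 227 in L-GMP, 331, 696 and 657 in L-GMP-derived cells and 275, 256 and 268 in GMP. The L-GMP-derived arrays lay above GMP by 2.0-fold on average (adjusted p = 0.0366) and above L-GMP by 1.86-fold (adjusted p = 0.0483), though L-GMP replicate 1 exceeded L-GMP-derived replicate 1. Both calls depended on single arrays. The call against GMP was lost on dropping L-GMP-derived replicate 2 (adjusted p = 0.121) or 3 (0.12) or any 1 of the GMP arrays (up to 0.103; 0.00258 to 0.17 over all alternatives). Against L-GMP it ended when any array but L-GMP replicate 1 and L-GMP-derived replicate 1 was left out (up to 0.16; 0.00294 to 0.16 over all alternatives). Pnp, which encodes purine nucleoside phosphorylase, read 2873, 2477 and 2687 in L-GMP, 1757, 2741 and 2479 in L-GMP-derived cells and 3054, 2584 and 2702 in GMP and passed no comparison (adjusted p = 0.831, 0.198 and 0.28). In the purine branch as a whole 4 of 12 genes fell and 1 rose in L-GMP, 3 rose and 2 fell in L-GMP-derived cells against GMP, and 5 rose and 1 fell against L-GMP. Over all tested genes 12.8% fell and 13.1% rose, 13.4% rose and 10.6% fell, and 16.6% rose and 14.1% fell in these comparisons. The 5 became 2 without L-GMP replicate 3, L-GMP-derived replicate 2 or L-GMP-derived replicate 3, and 3 without L-GMP replicate 2, GMP replicate 1 or GMP replicate 3. The 3 became 1 without L-GMP-derived replicate 2, GMP replicate 2 or GMP replicate 3, and 5 without L-GMP-derived replicate 1. The 2 that fell against GMP became 1 without any 1 of the GMP arrays, and the 1 that rose in L-GMP became 3 without L-GMP-derived replicate 1.

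**Figure D3:**
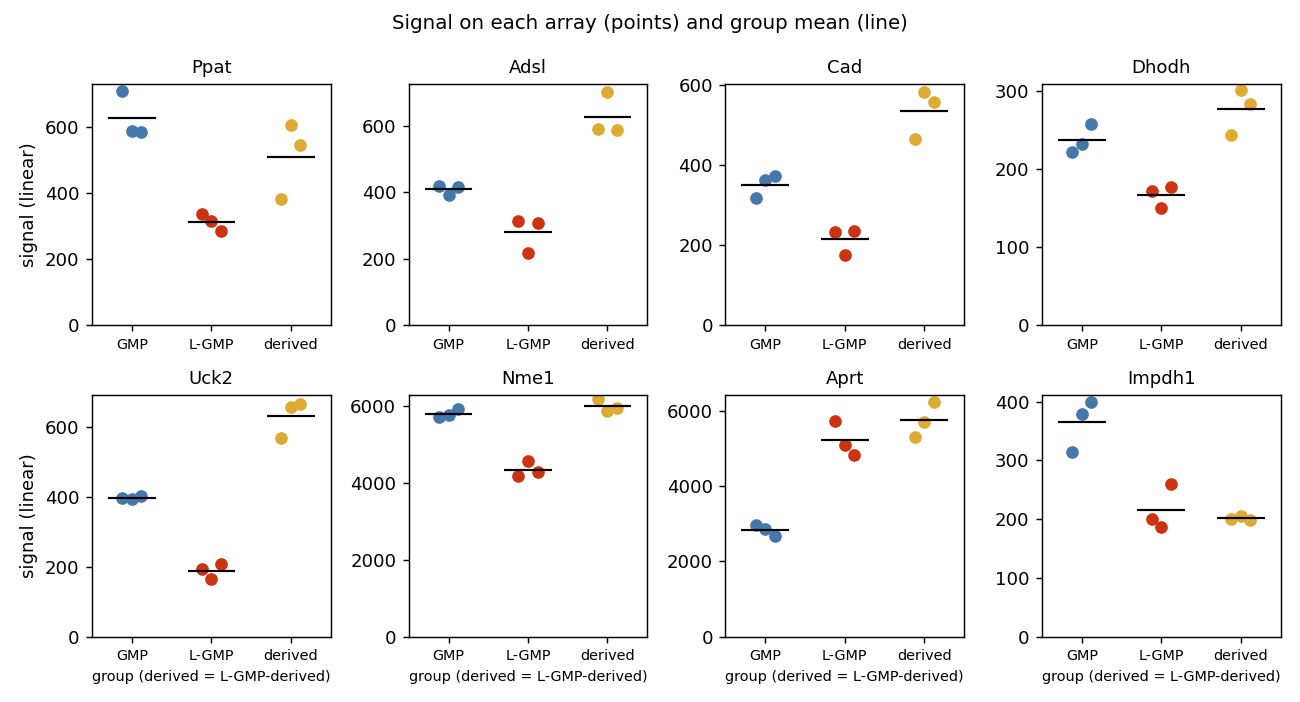
Linear signal (y axis, from 0) of 8 nucleotide genes on each array (points) with the group mean (line), for GMP, L-GMP and L-GMP-derived cells (x axis). The genes were picked after their values were seen; L-GMP is lowest for Ppat, Adsl, Cad, Dhodh, Uck2 and Nme1, both leukemic groups are above GMP for Aprt, and both are below it for Impdh1.

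All 3 genes of UMP synthesis fell in L-GMP, where 12.8% of all tested genes fell. Cad encodes the protein that carries out the first steps of pyrimidine synthesis, and its brightest probe set read 234, 176 and 235 in L-GMP, 464, 583 and 557 in L-GMP-derived cells and 318, 363 and 372 in GMP, with no overlap between any 2 groups. It was 1.64-fold lower in L-GMP than in GMP (log2 difference -0.72 ± 0.15 SE, adjusted p = 0.00535), 1.52-fold higher in L-GMP-derived cells than in GMP (adjusted p = 0.0139) and 2.5-fold higher than in L-GMP (adjusted p = 1.13e-04). This probe set can bind related transcripts. A second, dimmer one read 188, 156 and 190.2 in L-GMP and 169, 188 and 175 in GMP, with overlap (log2 difference -0.00, not past the test), and 252, 242 and 243 in L-GMP-derived cells, 1.38-fold above GMP (adjusted p = 0.0152) and 1.39-fold above L-GMP (adjusted p = 0.0125). So the fall of Cad in L-GMP rests on 1 of 2 probe sets, and the rise in L-GMP-derived cells was seen with each. The rise over GMP was lost on dropping L-GMP-derived replicate 2 (adjusted p = 0.0505) or the first GMP array, replicate 1 (0.0554; 0.00595 to 0.123 over all alternatives).

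Dhodh, whose product is the mitochondrial enzyme of the pathway, read 171, 149 and 177 in L-GMP, 243, 301 and 284 in L-GMP-derived cells and 221, 231 and 258 in GMP. It was 1.43-fold lower in L-GMP than in GMP (adjusted p = 0.0137) and 1.66-fold higher in L-GMP-derived cells than in L-GMP (log2 difference 0.73 ± 0.13 SE, adjusted p = 0.00169). The fall was lost on dropping L-GMP replicate 2 (adjusted p = 0.0519) or the GMP array numbered 3 (0.0655; 0.00654 to 0.0884 over all alternatives), and a second probe set gave a log2 difference of -0.26 that did not pass (adjusted p = 0.121). For L-GMP-derived cells against GMP the brightest Dhodh probe set did not pass (adjusted p = 0.249). The second was 1.47-fold higher there (adjusted p = 0.00452), and the mean over probe sets also passed (0.0215). Umps, which encodes UMP synthase, read 1355, 1473 and 1183 in L-GMP, 1348, 1863 and 1817 in L-GMP-derived cells and 1756, 1948 and 1766 in GMP. It was 1.37-fold lower in L-GMP than in GMP (adjusted p = 0.032), which was lost on dropping L-GMP replicate 1 (0.0667) or 3 (0.111) or any 1 of the GMP arrays (0.0637 to 0.115; 0.00394 to 0.231 over all alternatives). A dimmer Umps probe set gave a log2 difference of 0.10 (adjusted p = 0.63), so the fall of Umps also rests on 1 of 2 probe sets. L-GMP-derived against L-GMP did not pass for Umps (adjusted p = 0.106), but did without L-GMP-derived replicate 1 (0.00557).

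Ctps encodes the enzyme that turns UTP into CTP, and read 1422, 1331 and 1191 in L-GMP, 1569.7, 2351 and 2310.2 in L-GMP-derived cells and 1743, 1805 and 1776 in GMP. L-GMP lay below GMP on all arrays, just short of the threshold (log2 difference -0.44 ± 0.15 SE, adjusted p = 0.0503). Among arrays left out, that comparison passed without L-GMP-derived replicate 1 (adjusted p = 0.00204) or replicate 2 (0.0441; 0.00204 to 0.249 over all alternatives). L-GMP-derived cells were 1.56-fold above L-GMP (adjusted p = 0.00758), and against GMP they passed only without L-GMP-derived replicate 1 (adjusted p = 0.00795, against 0.348 with it). Ctps2, the gene of the second CTP synthase, read 300.2, 234 and 326 in L-GMP, 315, 303 and 197 in L-GMP-derived cells and 217, 216 and 205 in GMP, in L-GMP above GMP on each array but not past the test (adjusted p = 0.132). L-GMP-derived cells passed against GMP for Ctps2 without L-GMP-derived replicate 3 (adjusted p = 0.041, against 0.243 with it).

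Uck2 showed the largest differences among the 26 genes in 2 of the 3 comparisons. It encodes a uridine-cytidine kinase, which recycles these nucleosides. Its signals were 194, 166 and 207 in L-GMP, 568, 659 and 667 in L-GMP-derived cells and 398, 394 and 404 in GMP, and no 2 groups overlapped. Uck2 was 2.12-fold lower in L-GMP than in GMP (log2 difference -1.08 ± 0.12 SE, adjusted p = 1.23e-04), 1.58-fold higher in L-GMP-derived cells than in GMP (adjusted p = 0.00306) and 3.35-fold higher than in L-GMP (log2 difference 1.74 ± 0.12 SE, adjusted p = 5.83e-06). A second probe set gave log2 differences of -0.38, 0.98 and 1.36 (adjusted p = 0.0423, 2.49e-04 and 2.45e-05), and no alternative ended a call of the brightest. Uck1, the gene of the related kinase, read 485, 477 and 476 in L-GMP, 559.8, 464 and 469.6 in L-GMP-derived cells and 476, 517 and 576 in GMP, with overlap between all groups (adjusted p = 0.511, 0.71 and 0.802). Of the 7 genes of the pyrimidine branch 4 fell and 0 rose in L-GMP, and 4 rose and 0 fell in L-GMP-derived cells against L-GMP (limma, with 1 higher and 5 lower, then 5 higher and 0 lower, at an unadjusted p under 0.05). The 4 that fell became 2 without GMP replicate 3. Over all tested genes 12.8% fell and 13.1% rose in L-GMP, and 16.6% rose and 14.1% fell in L-GMP-derived cells against L-GMP.

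Few genes of deoxynucleotide supply passed limma's test. Of 5 tested, 0 rose and 0 fell in L-GMP or in L-GMP-derived cells against GMP (0 higher and 1 lower, then 0 higher and 0 lower, at an unadjusted p under 0.05), and 1 rose in L-GMP-derived cells against L-GMP. Over all tested genes 13.1% rose and 12.8% fell in L-GMP, and 13.4% rose and 10.6% fell in L-GMP-derived cells against GMP. Against L-GMP 16.6% rose and 14.1% fell, so with 5 genes the counts lie near the background. These counts do not show that the other genes were alike, and they changed with single arrays: 1 was lower in L-GMP without L-GMP replicate 1, and without L-GMP-derived replicate 1 the higher counts in L-GMP-derived cells were 1 against GMP and 2 against L-GMP. With all arrays, the gene that rose against L-GMP was Rrm1, which encodes the large subunit of ribonucleotide reductase. Its signals were 1778, 1636 and 1414 in L-GMP, 2036, 2305 and 2232 in L-GMP-derived cells and 1959, 1846 and 1908 in GMP. It was 1.37-fold higher in L-GMP-derived cells than in L-GMP (adjusted p = 0.00584), while L-GMP against GMP did not pass (adjusted p = 0.0886). It passed as lower without L-GMP replicate 1 (0.0465), with quantile scaling (0.0435) and with the mean over probe sets (0.0253). The rise in L-GMP-derived cells over L-GMP did not pass with that mean (0.0943). The second Rrm1 probe set, at 122, 86.3 and 107 in L-GMP and 132, 147 and 206 in GMP, was 1.53-fold lower in L-GMP (adjusted p = 0.041). It read 127, 108 and 109 in L-GMP-derived cells, which overlapped L-GMP. That comparison did not pass on it (log2 difference 0.14, adjusted p = 0.638), so the rise of Rrm1 rests on 1 of 2 probe sets.

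Rrm2 encodes the small subunit, which is known to limit reductase activity in the cell cycle. Its brightest probe set read 5105, 4883 and 3766 in L-GMP, 4147, 4730.1 and 4896 in L-GMP-derived cells and 4745, 4702 and 4745 in GMP and passed no comparison (adjusted p = 0.731, 0.786 and 0.954). That probe set can bind related transcripts. A far dimmer one, at 235, 174 and 187 in L-GMP, 306, 318 and 281 in L-GMP-derived cells and 175, 155 and 144 in GMP, was 1.91-fold higher in L-GMP-derived cells than in GMP (adjusted p = 8.99e-04) and 1.53-fold higher than in L-GMP (adjusted p = 0.0077). The third probe set passed none (adjusted p = 0.554, 0.601 and 0.954), so the result for Rrm2 depends on the probe set.

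Dut encodes the enzyme that keeps uracil out of DNA and gives dUMP for thymidylate. It read 1833, 1536 and 1533 in L-GMP, 1513, 2113 and 1982 in L-GMP-derived cells and 1612, 1613 and 1418 in GMP and passed no comparison (adjusted p = 0.728, 0.189 and 0.34). Without L-GMP-derived replicate 1 Dut passed as higher in L-GMP-derived cells than in GMP (adjusted p = 0.0151) and L-GMP (0.0315). Tk1, the thymidine kinase gene of cycling cells, read 1002, 888 and 703 in L-GMP, 884, 679 and 829 in L-GMP-derived cells and 688, 768 and 665 in GMP (adjusted p = 0.225, 0.473 and 0.644). Dck, which encodes deoxycytidine kinase, the enzyme that activates cytarabine, read 2717, 2649.6 and 1880.1 in L-GMP, 1066, 2385 and 2023 in L-GMP-derived cells and 2412, 1988 and 2242 in GMP (adjusted p = 0.795, 0.353 and 0.207). L-GMP-derived replicate 1 was the lowest of all arrays for Dck, and the groups overlapped in each comparison. Neither its 2 other probe sets nor any alternative gave a call for Dck.

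**Figure D4:**
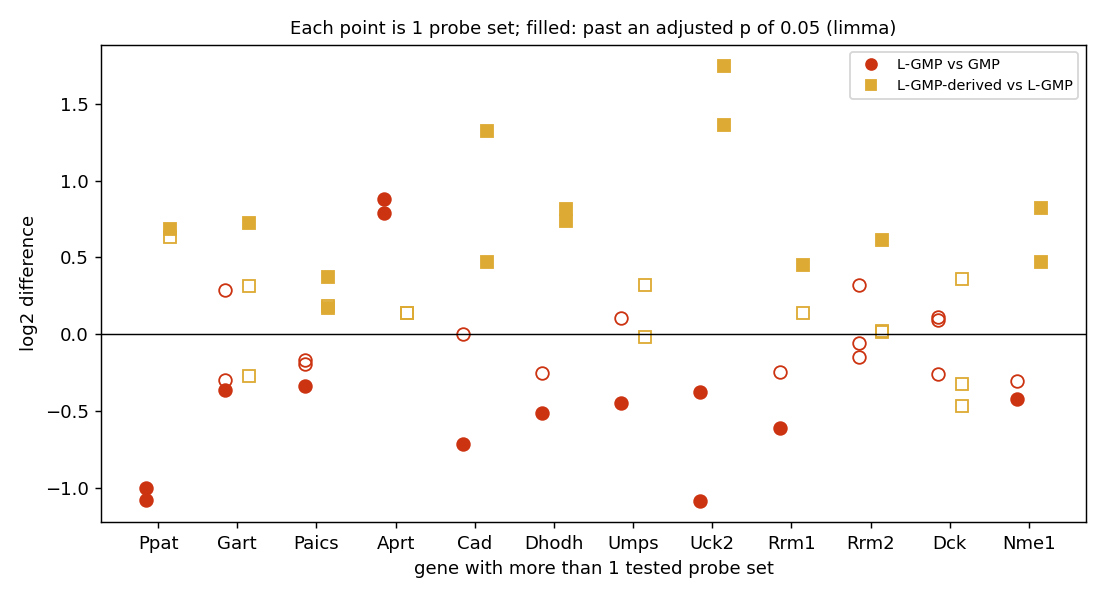
Log2 difference (y axis) of every tested probe set of the 12 genes with more than 1 (x axis), for L-GMP against GMP (circles) and L-GMP-derived against L-GMP (squares). Filled symbols passed an adjusted p of 0.05; probe sets of Cad, Dhodh, Gart, Nme1, Paics, Ppat, Rrm1, Rrm2 and Umps disagree in whether they passed in at least 1 of these comparisons, and no gene had filled symbols on opposite sides of 0 within a comparison.

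The nucleoside diphosphate kinases Nme1 and Nme2 pass phosphate between all nucleotide pools. Nme1 read 4170.3, 4559 and 4271 in L-GMP, 6171, 5864 and 5933 in L-GMP-derived cells and 5709.8, 5749 and 5915 in GMP and Nme2 5869, 6419.6 and 6391 in L-GMP, 7977, 8046 and 8017 in L-GMP-derived cells and 7501, 7666 and 7470.4 in GMP. Every L-GMP array lay below all others for each of them. In L-GMP, Nme1 was 1.34-fold and Nme2 1.21-fold lower than in GMP (adjusted p = 1.02e-04 and 5.18e-04). In L-GMP-derived cells, Nme1 was 1.38-fold and Nme2 1.29-fold higher than in L-GMP (adjusted p = 4.66e-05 and 8.10e-05). These differences are small in size beside that of Uck2, and their standard errors were 0.05 and 0.04 on the log2 scale. The sequences of the 2 genes are similar and the brightest Nme1 probe set can bind related transcripts, so the signals may not be separate. A dimmer Nme1 probe set, at 1747, 1523 and 1379 in L-GMP, 2592, 2889 and 2695 in L-GMP-derived cells and 2104, 1868 and 1766 in GMP, did not pass for L-GMP against GMP (adjusted p = 0.0555) and was 1.43-fold higher in L-GMP-derived cells than in GMP (adjusted p = 0.0055).

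Counted over probe sets in place of genes, 14 of the 42 tested probe sets were lower and 2 higher in L-GMP than in GMP, where 12.6% and 13.4% of all 14578 were. In L-GMP-derived cells 19 were higher and 1 lower than in L-GMP (16.4% and 13.5% of all), and 12 higher and 2 lower than in GMP (14.0% and 10.4% of all). Of the 12 genes with more than 1 tested probe set, 5, 7 and 8 had the same call on all of them in these comparisons, and 0 had calls in opposite directions.

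**Figure D5:**
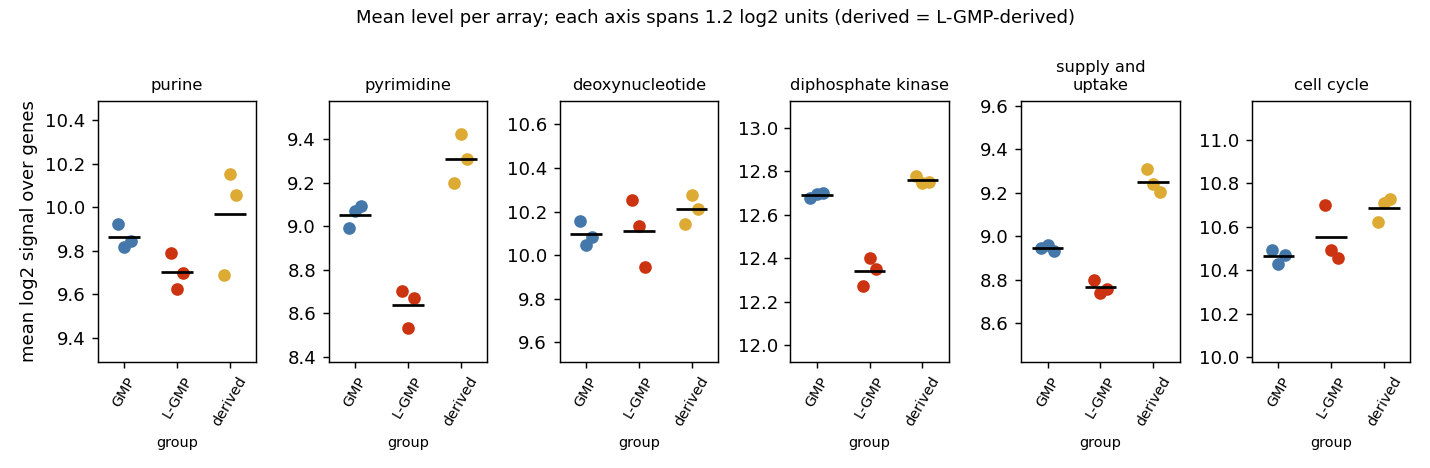
Mean log2 signal per array (y axis, each panel spanning 1.2 units) over the measured genes of each branch, over other genes of nucleotide supply and uptake, and over cell cycle genes, by group (x axis; line, group mean). For the pyrimidine branch L-GMP lies at 8.53 to 8.70, GMP at 8.99 to 9.09 and L-GMP-derived cells at 9.20 to 9.42. The deoxynucleotide and cell cycle groups overlap between L-GMP and GMP. For the cell cycle genes, L-GMP-derived cells at 10.62 to 10.73 lie above GMP at 10.43 to 10.50.

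Other genes of nucleotide metabolism, 50 in number, were listed apart from these enzymes, and 38 were tested. In L-GMP 13 fell and 7 rose against GMP, in L-GMP-derived cells 10 fell and 7 rose against GMP, and 9 rose and 8 fell against L-GMP. Over all tested genes the shares lower and higher were 12.8% and 13.1%, 10.6% and 13.4%, and 14.1% and 16.6%, and several of the counts lie near them. The median log2 differences of the 38 genes were -0.07, -0.11 and 0.11. Among the genes that supply precursors and take up nucleosides, 5 of 10 fell and 1 rose in L-GMP, and 4 rose and 2 fell in L-GMP-derived cells against L-GMP. Mthfd1, which makes the folate cofactors that purine synthesis uses, read 819.8, 774 and 743 in L-GMP, 1380.5, 2021 and 1960.1 in L-GMP-derived cells and 1328, 1293 and 1268 in GMP. It was 1.67-fold lower in L-GMP than in GMP (adjusted p = 0.00321) and 2.26-fold higher in L-GMP-derived cells than in L-GMP (adjusted p = 1.56e-04). The mitochondrial folate genes Shmt2 (563, 568 and 557 in L-GMP, 2687, 1740.1 and 1631 in L-GMP-derived cells and 709.6, 765 and 755 in GMP) and Mthfd2 (1079, 991 and 789 in L-GMP, 3516, 2912 and 3122 in L-GMP-derived cells and 959, 894 and 840.2 in GMP) were 2.65-fold and 3.54-fold higher in L-GMP-derived cells than in GMP (adjusted p = 2.04e-04 and 5.57e-06), and 3.50-fold and 3.36-fold higher than in L-GMP. No array left out ended these 6 calls.

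Among 15 tested genes that interconvert or break down nucleotides, 4 rose and 3 fell in L-GMP, where 13.1% of all tested genes rose and 12.8% fell. Ampd3, which encodes an AMP deaminase, read 906, 567 and 448 in L-GMP, 470.5, 737 and 767 in L-GMP-derived cells and 37.8, -7.82 and 8.86 in GMP, so GMP lay at the floor. It was at least 9.81-fold higher in L-GMP and at least 10.3-fold higher in L-GMP-derived cells than in GMP (adjusted p = 9.23e-06 and 7.70e-06). Gda, the guanine deaminase gene, was 2.57-fold and 1.92-fold higher in the same comparisons (adjusted p = 9.55e-04 and 0.0086). Xdh, which encodes the enzyme that makes uric acid, was at least 2.54-fold and at least 2.54-fold lower (adjusted p = 4.08e-04 and 4.47e-04). Its signals were 81.5, 47.2 and 48.3 in L-GMP, 80.6, 54.1 and 29.0 in L-GMP-derived cells and 203, 158 and 161 in GMP.

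Among nucleotide kinases, Ak4, a mitochondrial adenylate kinase gene, read 65.9, 8.60 and 31.6 in L-GMP, 112, 1763 and 2059.7 in L-GMP-derived cells and 1367, 1480.2 and 1416 in GMP. L-GMP-derived replicate 1 lay near the L-GMP arrays and its replicates 2 and 3 above GMP. Ak4 was at least 22.3-fold lower in L-GMP than in GMP (adjusted p = 0.00321). It was at least 11.7-fold higher in L-GMP-derived cells than in L-GMP (adjusted p = 0.00993) on a log2 difference of 3.54, which was 2.81 without L-GMP-derived replicate 3 and 4.91 without L-GMP-derived replicate 1. This call ended with no filter on dim probe sets (adjusted p = 0.067) or, just above 0.05, with the 6 arrays compared alone. The Ak4 values come from a probe set that can bind related transcripts, and without such probe sets the log2 differences were -0.40 for L-GMP against GMP and 0.45 for L-GMP-derived cells against L-GMP, both still past the test. Ak3, of the same family, was 2.05-fold lower in L-GMP (adjusted p = 7.42e-04). Adk, the adenosine kinase gene, was 1.87-fold lower (adjusted p = 0.00668), on a probe set that can bind related transcripts, and without such probe sets it did not pass (adjusted p = 0.246; 1.78e-04 to 0.246 over all alternatives). Cmpk2, a mitochondrial UMP-CMP kinase gene, was 2.08-fold lower in L-GMP-derived cells than in GMP (adjusted p = 0.00422). Dguok, which encodes the mitochondrial deoxyguanosine kinase, read 406, 450.3 and 402 in L-GMP, 178, 139 and 155 in L-GMP-derived cells and 259.9, 249 and 278 in GMP and was 2.68-fold lower in L-GMP-derived cells than in L-GMP (adjusted p = 2.24e-05). Adssl1, a second adenylosuccinate synthetase gene, read 1571, 1109 and 1278 in L-GMP, 421, 567 and 654 in L-GMP-derived cells and 772, 891 and 865 in GMP and, like Adss, was lower in L-GMP-derived cells than in L-GMP (2.42-fold, adjusted p = 4.50e-04).

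Cell cycle genes were set beside these, since demand for nucleotides rises in S phase. Of 22 tested, 4 rose and 0 fell in L-GMP, 5 rose and 0 fell in L-GMP-derived cells against GMP, and 4 rose and 1 fell against L-GMP, with medians of 0.05, 0.08 and 0.09. Over all tested genes 13.1%, 13.4% and 16.6% were higher in these comparisons, against 18.2%, 22.7% and 18.2% of the cell cycle genes. The shares lower were 12.8%, 10.6% and 14.1% over all tested genes, against 0%, 0% and 4.55%. The shares higher lie near the background or, at 22.7%, somewhat above it, and rest on 5 genes or fewer. The 4 that rose in L-GMP were Aurka (a mitotic kinase gene, 1.67-fold, adjusted p = 0.0042), the proliferation marker Mki67 (1.29-fold, adjusted p = 0.0172), the topoisomerase gene Top2a (1.16-fold, adjusted p = 0.0476) and the replication clamp gene Pcna (1.13-fold, adjusted p = 0.0143). The call of Mki67 ended without L-GMP replicate 1 or 2 or GMP replicate 2 or 3 (up to 0.076; 0.00828 to 0.076 over all alternatives), that of Pcna without L-GMP replicate 2 or 3 or GMP replicate 1 or 3 (up to 0.0565; 0.00823 to 0.145 over all alternatives), and that of Top2a without any array except L-GMP-derived replicate 1 and GMP replicate 1 (up to 0.178; 0.00669 to 0.178 over all alternatives). At an unadjusted p under 0.05, 6 higher and 3 lower cell cycle genes were found by limma in L-GMP. The count of 0 lower did not hold throughout: Bub1 passed as lower in L-GMP without L-GMP replicate 1 (adjusted p = 0.0408) or L-GMP-derived replicate 1 (0.0358) and with the mean over probe sets (0.0136). In L-GMP-derived cells against GMP, Aurka (2.25-fold), Plk1 (1.85-fold) and Cdk1 (1.56-fold), genes of mitotic kinases, were higher (adjusted p = 2.79e-04, 0.0116 and 0.00974), and against L-GMP the checkpoint kinase gene Bub1 was 1.68-fold higher (adjusted p = 0.0073). The calls of Aurkb (1.67-fold higher, adjusted p = 0.0297), Aurka (1.35-fold, 0.0465) and the cyclin gene Ccna2 (1.17-fold, 0.0263) against L-GMP each ended without L-GMP replicate 2 or 3 or L-GMP-derived replicate 2 or 3, and that of Aurka also without L-GMP-derived replicate 1 or any 1 of the GMP arrays (up to 0.116, 0.156 and 0.103). Mki67 was 1.32-fold higher in L-GMP-derived cells than in GMP (adjusted p = 0.0126), but not past the test without GMP replicate 2 (0.0577) or 3 (0.0594). The 1 gene that fell in L-GMP-derived cells against L-GMP was Pcna (log2 difference -0.13). That call ended on leaving out any array except L-GMP replicate 1 (adjusted p up to 0.133).

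Myc, like Ppat and Nme2, was lowest in L-GMP. It read 587, 572 and 657 in L-GMP, 1079.7, 996 and 1028 in L-GMP-derived cells and 1064, 1232 and 1169.8 in GMP, 1.91-fold lower in L-GMP than in GMP (log2 difference -0.93 ± 0.11 SE, adjusted p = 1.43e-04) and 1.71-fold higher in L-GMP-derived cells than in L-GMP (adjusted p = 4.37e-04). Mycn, a gene of the same family, had another order, at 5772, 4182 and 2286 in L-GMP, 2681, 630.2 and 726 in L-GMP-derived cells and 30.3, 5.85 and 3.58 in GMP, at least 61.0-fold higher in L-GMP than in GMP (adjusted p = 1.63e-05), with at least 17.1-fold in L-GMP-derived cells, or at least 10.8-fold without L-GMP-derived replicate 1. A measure of RNA quality also moved with the groups. For the beta-actin control probe sets, the 3′ signal divided by the 5′ signal was 5.17 ± 0.355 (SD, n = 3) in L-GMP, 7.37 ± 0.648 in GMP and 7.10 ± 0.140 in L-GMP-derived cells (exact two-sided permutation p = 0.1 for L-GMP against each, the lowest possible with 3 arrays a group). The 3′ signal of beta-actin divided by its middle signal was 2.26 ± 0.291 in L-GMP, 4.23 ± 0.537 in GMP and 3.01 ± 0.170 in L-GMP-derived cells, with an exact p of 0.1 for each pair of groups. For Gapdh the 3′ to 5′ ratio was 8.09 ± 3.05, 7.86 ± 0.855 and 7.21 ± 1.78 (exact p = 1 for L-GMP against GMP and 0.7 for L-GMP-derived cells against L-GMP). The 3′ signal of Gapdh divided by its middle signal was 1.85 ± 0.0493 in L-GMP, 2.13 ± 0.101 in GMP and 1.86 ± 0.132 in L-GMP-derived cells (exact p = 0.1 for each against GMP). The part of Myc, Mycn, the cell cycle and RNA quality in the differences of the nucleotide genes was not tested.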

How the data were processed

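The authors deposited 1 table of processed array intensities: linear signals, a column for each array. MAS5 (version 5) was used per the submitters' processing notes; background correction, summary and scaling are not stated in the labels. Of 204210 values 1917 are negative. Trimmed means of the arrays lay within 4.02% of their mean, so the scaling was kept.

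The 25th percentile of the table (62.4) served as floor for all lower signals before log2. After 64 control probe sets were left out, those above 111 (40th percentile) on at least 3 of 9 arrays were tested with limma 3.58.1 in R 4.3.3 (intensity trend, two-sided, all 9 arrays, 6 residual degrees of freedom, Benjamini-Hochberg). A fold against a group with an array at the floor is "at least". Folds of dim genes are understated.

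Probe sets were named by the platform annotation where it gave 1 symbol; 3 probe sets of these genes shared with another gene were not used. All 27 genes matched RefSeq (GRCm38.p6). Named genes are all 27, of the other nucleotide genes up to 6 per comparison past the threshold without overlap, up to 4 cell cycle genes, and Myc, Mycn, Kit and Mpo. Cd34, Marco, Mrc1, Ms4a1, Cd3g and Klf1 were named outside this rule, after their values were seen. Members and lists were chosen with earlier results of these data known. On simulated data with 14578 probe sets and 200 changed in L-GMP against GMP, 72% of 2-fold and 98% of 4-fold changes were found, and 5.03% of calls were false. In the data 25.9% of probe sets were called in that comparison, far more than were changed there. The adjustment is therefore stricter in the simulation, and its rates do not carry over to the data. The number of arrays limits the precision.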

Additional observations from a re-analysis of the deposited data

How the results depend on the processing

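Over 17 alternatives no gene of the 26 changed direction with a call on either side, apart from Rrm2 in L-GMP-derived cells against GMP, at 0.94 (log2) without probe sets that can bind related transcripts. That alternative uses another probe set. In the same comparison Ak4 ranged from -1.68 without L-GMP-derived replicate 3 to 0.42 without L-GMP-derived replicate 1 (-0.94 with all). With only the 6 arrays compared, 3 nucleotide genes were higher in L-GMP than in GMP in place of 1, and 1 was lower in L-GMP-derived cells than in GMP in place of 2, as without the intensity trend (1). Leaving out single arrays gave 1 to 3 higher in L-GMP, and in L-GMP-derived cells against GMP 2 to 9 higher and 1 to 2 lower. Probe sets past the threshold then numbered 2475 to 4904 for L-GMP against GMP (3777 with all) and 2306 to 4456 for L-GMP-derived cells against GMP (3551 with all), lowest without GMP replicate 3 and highest without L-GMP-derived replicate 1; the cause was not tested. Deviations from group means correlated at -0.31 to 0.17 between same-numbered arrays and at -0.18 to 0.30 between differently numbered arrays of different groups. With 3 arrays a group, these values cannot show whether the numbers pair the samples, and the labels do not say. With the replicate block, where the unnumbered GMP array forms a block of its own, 2 genes were higher and 1 lower in L-GMP-derived cells than in GMP, and 1916 and 1750 probe sets passed in the comparisons with GMP. Quantile scaling moved the median difference by at most 0.02. The other counts over the 26 genes and over all probe sets stayed within 1.5 times, but counts within branches moved further: with the replicate block 2 pyrimidine genes were lower in L-GMP in place of 4, and 3 purine genes were higher in L-GMP-derived cells than in L-GMP in place of 5, as with the 6 arrays compared alone and without the intensity trend. Dim genes near the floor are the least certain.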
